A study of Mus musculus with 2 samples.

Results

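The genes described here are the axonemal dynein heavy chain genes and the cilia and flagella associated protein genes of the mouse, taken as every gene column found in both deposited tables whose name starts with Dnah or Cfap followed by a digit. There were 48 such genes among 36245 shared gene columns, 16 Dnah names and 32 Cfap names. The name rule also takes in Dnah2os, an antisense transcript within Dnah2 that codes for no heavy chain. Of the 48, 46 had at least 20 counts over the germ cell stages in each library and enter the counts of peak stages. Dnah11 (10 and 14 germ cell counts in the young and aged library) and Dnah2os (3 and 2) did not, and the other 46 had 51 or more.

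The axoneme is the bundle of microtubules inside a motile cilium or a sperm tail. Dynein heavy chains are the motor proteins that make it bend. Outer arm heavy chains and inner arm heavy chains sit in separate rows along each outer doublet microtubule, and the central apparatus, the radial spokes and proteins inside the microtubule wall regulate or stabilise the beat. Many Cfap proteins belong to these structures. In the testis the axoneme is built in spermatids, the haploid germ cells that follow the meiotic divisions of the spermatocytes.

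Single cells of testicular tissue were captured on the BD Rhapsody system, which pairs cells with barcoded beads in microwells. There was 1 library from 2-month-old mice (young) and 1 from 24-month-old mice (aged). The labels give no strain, genotype or treatment that differs between the ages, and no number of mice per library. All mice were anesthetized with Avertin, and the minced testes were digested with accutase. Although the labels name stroma cells, many cells carried markers of spermatocytes or spermatids. The 6 germ cell stages given below held 1374 of 2732 analysed young cells (50.3%) and 3578 of 5691 aged cells (62.9%). Further cells with spermatid markers lay outside the stages and this count, in cluster 7 (73 young and 471 aged cells) and cluster 14 (109 aged cells). Since each age has 1 library, no difference could be checked against replicates and none was tested. Intervals are exact 95% intervals and cover counting error only.

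Levels are in CPM, a gene's counts per 1000000 of all counts in the cells of a stage, taken library by library. CPM are not per gene length, so levels are compared for the same gene across stages and ages and not between genes. The germ cells were placed in 6 stages by markers, and the clusters were made without the Dnah, Cfap and other axoneme genes. The stages were earlier spermatocytes (clusters 4 and 8; 77 young and 1061 aged cells), late spermatocyte-like cells (582 and 1244), an intermediate cluster with markers of both late spermatocytes and round spermatids (278 and 404), round spermatid-like cells (132 and 262), later round spermatid-like cells that also carry elongating markers (169 and 294) and elongating spermatid-like cells (136 and 313). Cluster 8 had 0 pachytene markers and 1 late spermatocyte marker among its 10 leading genes, so clusters 4 and 8 are given no class name, and they are also given by number below. Median counts per cell ran from 28859 to 30698 in the first 5 young stages and from 15016.5 to 18293.5 in the same aged stages, and were 13751.5 and 3716 in elongating cells. Both tables held 35 cell names in common, so barcodes repeat between the libraries.

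Sequence upstream of the genes was searched for motifs of factors known from cilium genes and from meiotic and later germ cells. RefSeq promoters on GRCm38.p6 were found for 39 of the 48 genes, and the 250 bases before each start were searched on both strands for 3 short motifs. These motifs were chosen after several spellings had been tried. GTTGCC, which reads GGCAAC on the other strand, is the half-site of RFX factors, which bind promoters of many cilium genes. It was in 10.5% of the promoters of all 27025 gene symbols. Among matched members with their highest level in spermatocytes of both libraries it was in 8 of 16 (Cfap20, Cfap298, Cfap300, Cfap46, Cfap74, Dnah7a, Dnah7b and Dnah7c). Among matched members highest in a later stage in both libraries it was in 4 of 18 (Cfap161, Cfap44, Cfap58 and Dnah10). CAACTG, which reads CAGTTG on the other strand, is the core of the site of MYB factors and was in 11.1% of all promoters, in 5 of 16 and in 2 of 18, and CAGTTG and GTTGCC overlap where the letters read CAGTTGCC. TGACGTCA, the element bound by CREB and CREM, was in 1.62% of all promoters and in 0 of 16 and 0 of 18, and it was in the promoter of 1 of the 39 members, Dnah6. The motifs are letters in a window and describe no binding.

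The windows around the RFX half-site in the Dnah7 genes, near copies of each other on chromosome 1, are shown because these 3 genes also share their stage of highest level. Each window has 24 bases, is written 5′ to 3′ on the strand that reads GTTGCC, and has the half-site in capitals.
Dnah7a, chr1:53706965-53706988, minus strand: cacaGTTGCCtgccaccctctgta
Dnah7b, chr1:46066686-46066709, plus strand: cacaGTTGCCacccacccttaagg
Dnah7c, chr1:46425295-46425318, plus strand: cagaGTTGCCttccaccctctgta
The Dnah7b window lies inside the Dnah7b gene as GENCODE M21 draws it, and the other 2 windows overlap no annotated gene. Cfap298 was the member with half-sites facing each other, a GTTGCC followed after 1 to 3 bases by GGNAAC. Such pairs were in 0.459% of all promoters and in 1 of the 39 members. Both of its pairs are shown, with each GTTGCC and GGCAAC in capitals.
Cfap298, chr16:90935018-90935041, minus strand: tttgGTTGCCcgGGCAACagctac
Cfap298, chr16:90934899-90934922, minus strand: gactGTTGCCcctGGCAACagcca
Both Cfap298 windows lie within the gene in GENCODE M21, which starts Cfap298 further upstream than the RefSeq entry used here.

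The full 250 bases are shown for a gene highest in earlier spermatocytes, Cfap300 (chr9:8042876-8043125, minus strand), and for a gene highest in the intermediate cluster, Cfap44 (chr16:44394549-44394798, plus strand). They were chosen among the promoters with a half-site because they overlap their own annotated gene by no base and by 3 bases. Capitals mark GGCAAC, the half-site as it reads on the gene's strand.
Cfap300: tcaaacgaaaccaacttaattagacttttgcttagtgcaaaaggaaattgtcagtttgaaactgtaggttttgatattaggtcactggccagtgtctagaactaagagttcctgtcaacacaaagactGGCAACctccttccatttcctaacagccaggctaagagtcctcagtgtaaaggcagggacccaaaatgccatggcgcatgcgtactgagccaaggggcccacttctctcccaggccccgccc
Cfap44: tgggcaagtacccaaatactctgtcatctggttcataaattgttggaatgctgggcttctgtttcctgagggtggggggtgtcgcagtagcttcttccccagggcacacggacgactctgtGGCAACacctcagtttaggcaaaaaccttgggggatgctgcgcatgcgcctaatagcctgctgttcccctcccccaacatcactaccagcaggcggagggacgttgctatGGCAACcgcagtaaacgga
The first promoter holds 1 half-site and the second holds 2.

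The stage of highest level differed among the members, and most of them kept it between the libraries. In the young library 16 of 46 members (34.8%) were highest in earlier spermatocytes, 8 (17.4%) in late spermatocyte-like cells, 9 (19.6%) in the intermediate cluster, 6 (13%) in round, 5 (10.9%) in later round and 2 (4.35%) in elongating spermatid-like cells. Among all 17562 genes with the same minimum of counts these shares were 31.3%, 18%, 10.3%, 9.68%, 17.1% and 13.5%. In the aged library the members' counts were 15, 7, 10, 9, 5 and 0, beside 30.5%, 17.2%, 11.8%, 10.5%, 16.9% and 13.1% of all genes. The members' share in spermatocytes lay near the share of all genes. Their share in the intermediate cluster was above it, and their share in elongating cells below it.

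The highest stage was the same in both libraries for 37 of 46 members (80.4%), beside 76.4% of all genes. A spermatocyte stage was highest in both libraries for 21 members (45.7%, all genes 44.2%), and a later stage, from the intermediate cluster to elongating cells, for 21 (45.7%, all genes 47.2%). The remaining 4 (Cfap43, Cfap97d2, Cfap99 and Dnah6) differed between libraries. The interval of the highest stage did not overlap that of the runner-up for 25 members of the young library and 30 of the aged one. For the other members the highest stage and its neighbour are not told apart by counting error alone. Elongating cells gave the lowest level for 33 members in each library. The highest stage was at least 2 times the lowest for 43 of the 46 in both libraries, at least 10 times for 22 and at least 50 times for 5. Shares of all genes were not computed for the counts of intervals apart, of the lowest stage or of these multiples. Those counts therefore describe the members only.

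**Figure D1:**
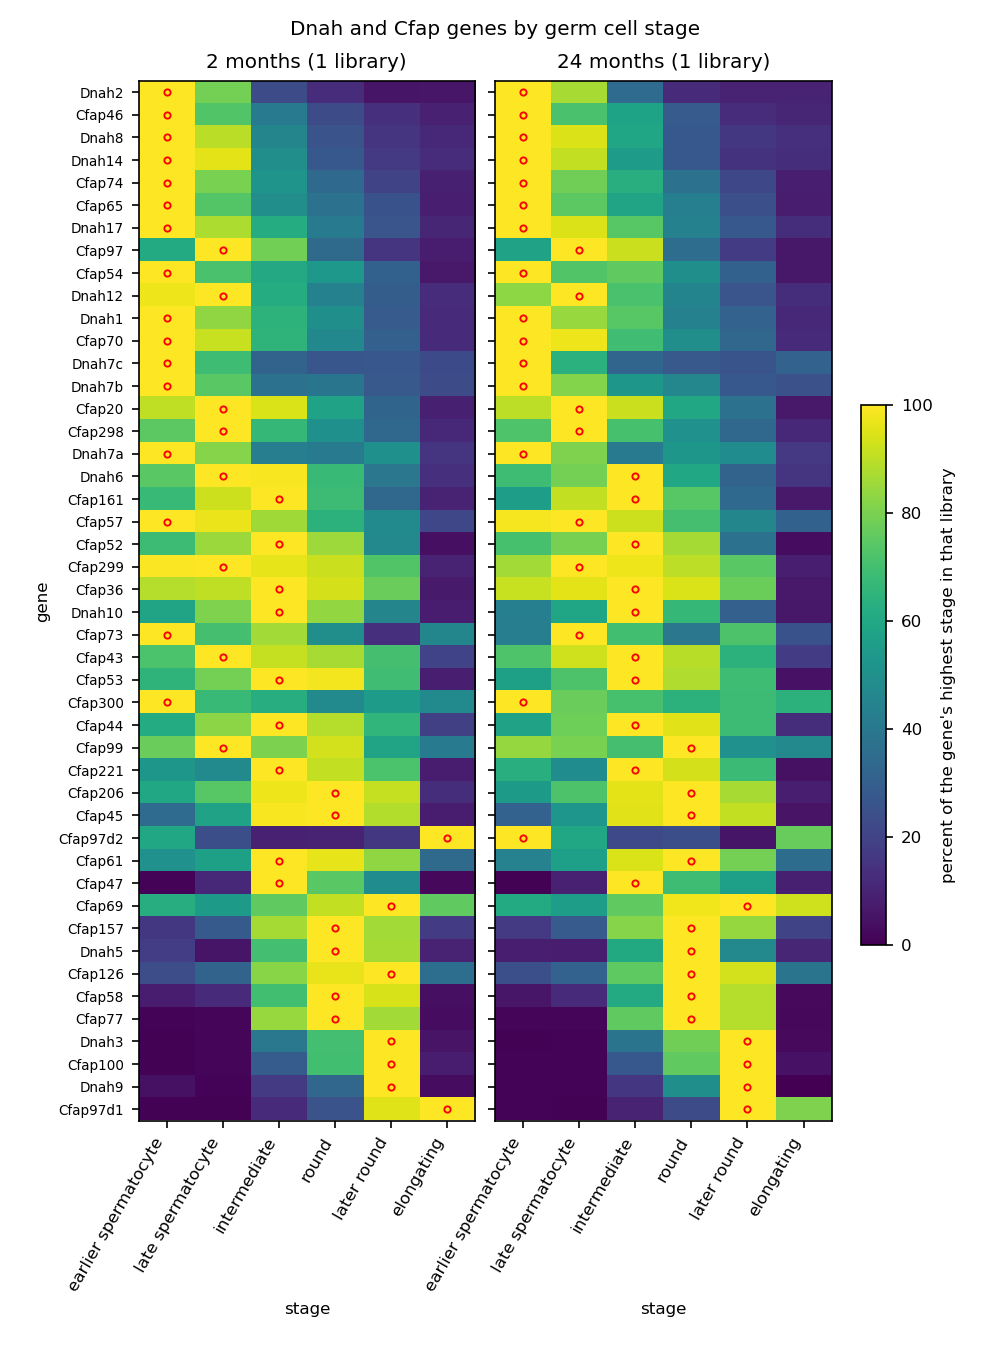
Level of each of the 46 genes (rows) in each of 6 germ cell stages (columns), as a percent of that gene's highest stage in the same library, with 2 months on the left and 24 months on the right; a red circle marks the highest stage. Genes are ordered from those highest in spermatocytes at the top, such as Dnah2, to those highest in later round cells at the bottom, such as Dnah3, and the pattern is much alike in the panels, with the highest stage shared by 37 of 46 genes.

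Summed over all members, the level was 8540 CPM in young and 8342 CPM in aged earlier spermatocytes and 9010 and 9031 in late spermatocyte-like cells. It was 9087 and 9493 CPM in the intermediate cluster, 8178 and 8388 in round, 6836 and 6746 in later round and 1885 and 1881 in elongating cells. The sum was thus nearly level up to the round stage while its make-up changed. The heavy chains alone went down, from 2443 and 2498 CPM in earlier spermatocytes through 1341 and 1678 in the intermediate cluster to 316 and 373 in elongating cells. In elongating cells the 13 elongating markers, led by Prm1 and Tnp1, took 163672 CPM of the young and 166507 CPM of the aged counts. CPM there measure a share of a pool that these genes fill, and a lower share cannot be told apart from fewer transcripts per cell.

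The same counts were made by role, where over all genes 44.2% were highest in a spermatocyte stage and 47.2% in a later stage of both libraries. Of the 14 heavy chains with enough counts, 9 were highest in a spermatocyte stage in both libraries and 4 in a later stage. Of 32 Cfap genes, 12 and 17 were. Within the outer arm the split was 2 and 2 of 4, and within the inner arm 6 and 2 of 9. Central apparatus genes had 5 and 3 of 9, and dynein assembly genes 2 and 0 of 2. Microtubule inner proteins and the inner junction had 1 and 6 of 7, radial spoke genes 0 and 2 of 2, and sperm tail or basal body genes 0 and 3 of 3. The inner arm modifiers had 2 and 1 of 3, the tether genes 0 and 1 of 2, and Dnah14, a heavy chain of unclear place, was highest in spermatocytes. These counts are small and describe the lists only.

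Dnah8, an outer arm heavy chain of the sperm tail (chr17:30624354-30877365), was at 955, 857, 433, 246, 144 and 109 CPM in the young library, in the order earlier spermatocyte, late spermatocyte, intermediate, round, later round and elongating, which holds for all such series below. In the aged library it was at 945, 896, 556, 259.8, 154 and 129 CPM. Its level was highest in earlier spermatocytes and went down through every later stage in both libraries. A Dnah8 count was found in 100% of the 77 young (interval 95.3 to 100) and 98.4% of the 1061 aged earlier spermatocytes (97.4 to 99.1). With each cell thinned to 2000 counts the shares were 92.2% and 82.6%, with 44 of 1061 aged and 0 young cells left out as too shallow. In Leydig-like cells, somatic cells that should lack the gene, a count was found in 19.2% and 13.8%, and in 7.64% and 8.14% after thinning, at median depths of 6937 and 4776 counts. Both shares in earlier spermatocytes lay above this background, thinned or not.

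Dnah17, another outer arm heavy chain of the sperm tail, followed the same course. It was at 330.3, 289.7, 205, 136, 86.6 and 35.1 CPM in the young library and at 341, 323, 253, 150.04, 93.3 and 44.5 CPM in the aged library. The remaining outer arm chains, Dnah5 and Dnah9, are best known from the cilia of the airways, and both were low in spermatocytes and highest in round (Dnah5) or later round cells (Dnah9). Dnah9 was at 1.28, 0.315, 4.78, 9.31, 28.0 and 0.911 CPM in the young library and at 0.306, 0.214, 4.15, 13.1, 26.4 and 0 CPM in the aged library, where 0 counts were found in elongating cells and 3 counts would be 2.15 CPM. Dnah5 was at 0.851, 0.262, 3.27, 4.66, 4.04 and 0.455 CPM in young and at 0.552, 0.513, 3.99, 6.56, 3.10 and 0.718 CPM in aged cells, so its whole course rests on few counts. Dnah11, the last outer arm chain, stayed at or under 0.807 CPM in every young and 1.03 CPM in every aged stage.

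Among inner arm heavy chains, Dnah1, Dnah2, Dnah7a, Dnah7b and Dnah7c were highest in earlier spermatocytes of both libraries. Dnah2, part of the inner arm dynein that pairs a set of heavy chains (chr11:69420809-69549110), was at 206, 164, 48.1, 26.2, 11.5 and 12.7 CPM in the young library. It was at 212, 184, 74.3, 26.3, 20.02 and 20.8 CPM in the aged library. The step from late spermatocyte-like cells to the intermediate cluster was a ratio of 0.294 (interval 0.264 to 0.326) in young and 0.403 (0.365 to 0.445) in aged cells, lower in both. Dnah1 was at 154, 128, 99.3, 76.4, 44.0 and 19.1 CPM in the young and 163, 138, 121, 71.7, 51.2 and 18.7 CPM in the aged library, a slower course than that of Dnah2.

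The Dnah7 genes have near-identical sequences, and reads may have been split or moved between them, so the level of any single copy is uncertain. Dnah7a was at 93.6, 76.5, 40.1, 38.5, 47.0 and 14.6 CPM in young and 95.6, 77.0, 39.4, 50.5, 46.6 and 15.8 CPM in aged cells. Dnah7b was at 133, 99.1, 49.5, 51.7, 37.1 and 31.0 CPM and 126, 103, 66.8, 58.4, 34.9 and 31.6 CPM. Dnah7c was at 79.2, 54.5, 25.3, 21.3, 21.4 and 17.8 CPM and 93.4, 59.8, 30.4, 26.3, 24.4 and 29.4 CPM. All 3 were lower by 1.5-fold or more at the step into the intermediate cluster in both libraries, and differed less between the intermediate cluster and round cells.

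Dnah12, Dnah6 and Dnah10, further inner arm chains, were highest 1 or 2 stages later. Dnah12 was highest in late spermatocyte-like cells, at 140.03, 144, 88.9, 63.5, 42.2 and 18.2 CPM in young and 129, 155, 111, 69.7, 41.1 and 20.1 CPM in aged cells. Dnah10 was highest in the intermediate cluster, at 42.6, 59.0, 73.1, 61.3, 33.3 and 5.46 CPM in young and 42.4, 58.2, 98.7, 65.6, 30.1 and 6.46 CPM in aged cells. Dnah6 was highest in late spermatocyte-like cells of the young library (51.1, 68.6, 68.0, 46.6, 27.2 and 9.56 CPM) and in the intermediate cluster of the aged library (56.4, 64.9, 81.9, 48.7, 26.2 and 12.2 CPM). In the young library its levels in these 2 stages overlapped within counting error. Dnah14, of unclear place in the axoneme, was at 255, 244, 125, 69.8, 43.6 and 32.3 CPM in young and 291, 264, 160.5, 80.6, 43.1 and 38.0 CPM in aged cells, a course like that of Dnah8.

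Dnah3, an inner arm heavy chain (chr7:119922671-120095280), stood apart from the other inner arm chains. It was at 1.28, 2.36, 77.0, 135, 193 and 10.0 CPM in the young library and at 1.16, 1.71, 77.2, 157, 201 and 5.02 CPM in the aged library. The ratio of the intermediate cluster over late spermatocyte-like cells was 32.6 (24.1 to 45.1) in young and 45.1 (32.6 to 64.0) in aged cells. A Dnah3 count was found in 7.04% of the 582 young and 3.05% of the 1244 aged late spermatocyte-like cells, and in 82.4% and 59.9% of the cells of the intermediate cluster. In later round cells the shares were 100% and 90.8%. In Leydig-like cells they were 1.98% and 0.882%. Thinned to 2000 counts, Dnah3 was found in 0.515% and 0.329% of late spermatocyte-like and 30.2% and 33.0% of later round cells, against 0.660% and 0.581% of Leydig-like cells. The thinned late spermatocyte shares thus lay at or below the background and are read as such.

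**Figure D2:**
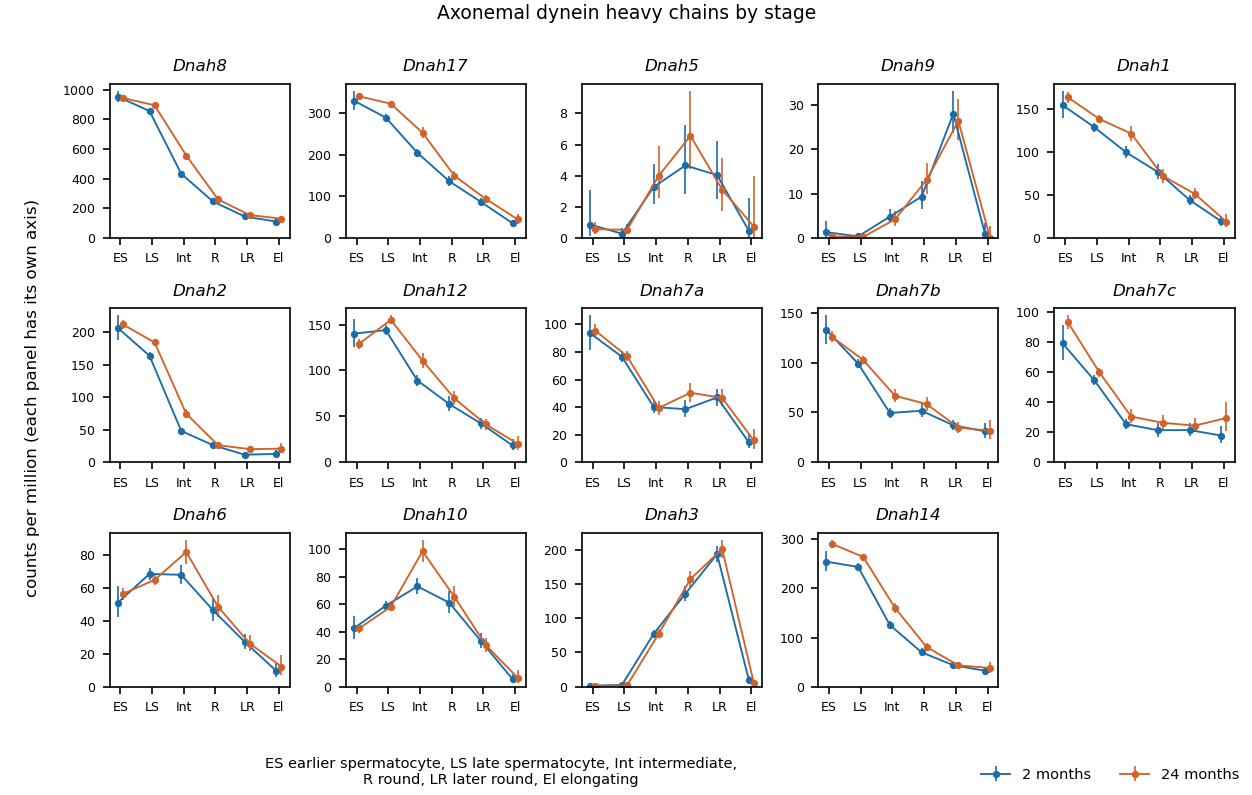
Level of 14 axonemal dynein heavy chain genes in CPM (vertical axis, from 0, its own scale in each panel) across 6 germ cell stages (horizontal axis), with 1 young (blue) and 1 aged (orange) library; points are levels and bars exact 95% Poisson intervals. Dnah8, Dnah17, Dnah1, Dnah2 and Dnah14 are highest on the left, Dnah10 in the middle, and Dnah5, Dnah9 and Dnah3 on the right, in both libraries.

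The Cfap genes highest in earlier spermatocytes of both libraries were led by central apparatus genes. Cfap46 was at 197, 143, 80.1, 46.1, 27.6 and 18.2 CPM in young and 217, 155, 126, 62.0, 27.7 and 23.0 CPM in aged cells. Its level in earlier spermatocytes was 3.12 times the mean of the other stages in the young and 2.76 times in the aged library. For Cfap65 these multiples were 2.58 and 2.40 at 432 CPM in each library, for Cfap74 they were 2.57 and 2.39 at 211 and 231 CPM, and for Cfap54 they were 2.24 and 2.12 at 91.9 and 91.0 CPM. All 4 encode central apparatus proteins, and all went down from the earlier spermatocytes to elongating cells in both libraries, except that aged Cfap54 was at 66.2 CPM in late spermatocyte-like cells and 68.8 CPM in the intermediate cluster. Cfap70, another central apparatus gene, was highest there as well at 283 and 271 CPM, and Cfap300, a gene of dynein assembly, at 60.4 and 53.6 CPM.

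In late spermatocyte-like cells the leading gene was Cfap97, at 416, 682, 537, 235, 103 and 52.4 CPM in young and 352, 613, 563, 219, 108 and 38.7 CPM in aged cells. Its level in that stage was 2.54 and 2.39 times the mean of the others. Cfap298, needed for assembly of dynein arms in the cytoplasm, was at 424, 567, 378, 286, 189.6 and 62.4 CPM in young and 382, 526, 373, 265, 175 and 58.8 CPM in aged cells. Cfap20, of the inner junction between the tubules of a doublet, was highest at 261 and 268 CPM. Cfap299 was highest there too, at 285 and 295 CPM, but between 208 and 295 CPM in each of the first 5 stages of both libraries, a nearly level course. Cfap57 was at 176 and 171 CPM in the first 2 young stages and 171 and 173 CPM in the first 2 aged stages, which overlap within counting error.

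In the intermediate cluster Cfap47 led. This central apparatus gene was at 0.426, 4.51, 40.5, 30.1, 19.8 and 0.911 CPM in young and 0.306, 3.81, 40.7, 28.1, 22.9 and 3.59 CPM in aged cells. The step into the cluster was a ratio of 8.97 (7.06 to 11.5) and 10.7 (8.35 to 13.8). Cfap47 was the member not found in GENCODE M21, so no coordinates are given for it. Cfap161 and Cfap52, both proteins of the microtubule inner wall, were highest there at 301 and 291 CPM and at 203 and 216 CPM. Cfap221, of the central apparatus, was at 60.1 and 61.5 CPM. Of the others highest in this cluster in both libraries, Cfap36 was at 1097 and 1034, Cfap53 at 298 and 334 and Cfap44, of the complex that tethers an inner arm dynein, at 111 and 121 CPM.

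In round spermatid-like cells Cfap77, a protein inside the doublet wall, had the largest step into the intermediate cluster of any member, in both libraries. It was at 1.702, 2.05, 141, 168, 144 and 5.46 CPM in the young and 2.27, 2.70, 137, 181, 161 and 3.59 CPM in the aged library. That step, from late spermatocyte-like cells, was a ratio of 69.1 (50.2 to 97.6) and 50.9 (39.4 to 66.9). Cfap58, which takes part in building the sperm tail, was at 25.5, 38.9, 227, 324, 305 and 12.7 CPM in young and 18.8, 37.5, 196, 319, 283 and 8.61 CPM in aged cells. Cfap157 was highest at 197 and 205 CPM, and Cfap45, of the microtubule inner wall, at 301 and 284 CPM. Cfap206, of the base of the radial spokes, was highest at 1329 and 1349.9 CPM, over levels of 798 and 738 CPM already in earlier spermatocytes.

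In later round cells Cfap100, of the complex that modifies inner arms, was at 165 and 183 CPM, over 1.28 and 1.65 CPM in earlier spermatocytes. Its step into the intermediate cluster was a ratio of 22.5 (16.3 to 31.8) and 31.8 (22.6 to 46.0). Cfap69 was highest in the same cells at 498 and 509 CPM and was still at 376 and 471 CPM in elongating cells. Cfap97d1, a sperm tail gene, was at 0.851, 0.945, 15.6, 33.8, 126 and 132 CPM in young and 0.919, 0.770, 11.3, 27.4, 117 and 94.7 CPM in aged cells. Its 2 last stages overlapped within counting error in the young library. Its level was higher again in cluster 7, which was left unnamed and holds 73 young and 471 aged cells with both round and elongating markers, at 300.1 CPM (277 to 325) and 252 CPM (234 to 270).

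**Figure D3:**
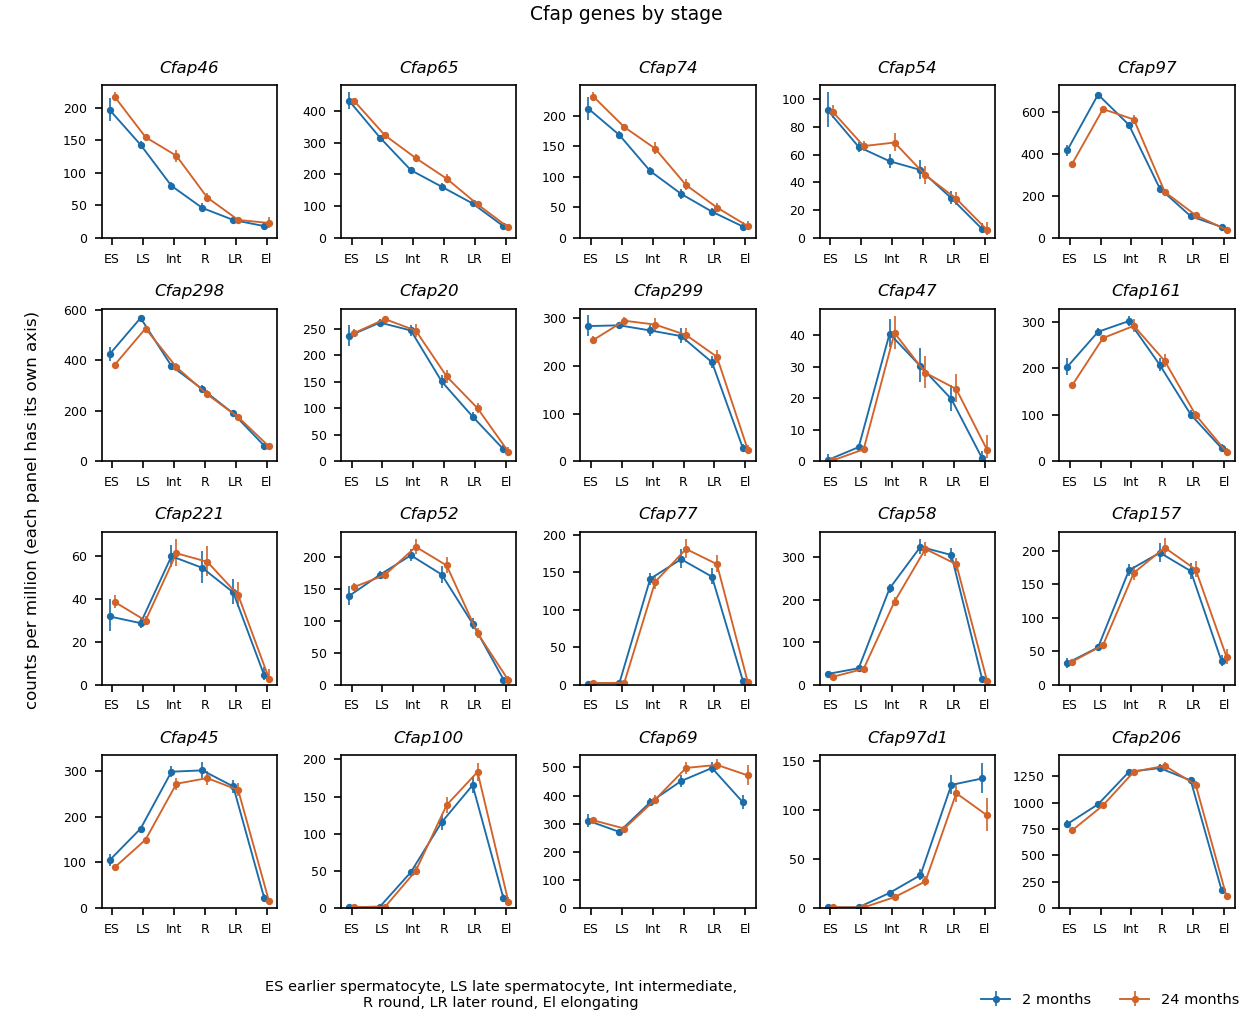
Level of 20 Cfap genes in CPM (vertical axis, from 0, its own scale in each panel) across 6 germ cell stages (horizontal axis), with 1 young (blue) and 1 aged (orange) library; points are levels and bars exact 95% Poisson intervals. The panels run from genes highest in earlier spermatocytes, such as Cfap46, to genes highest in spermatids, such as Cfap77 and Cfap97d1, and nearly all are low in elongating cells except Cfap69 and Cfap97d1.

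For the 9 members whose highest stage differed between libraries, the levels were close or low. Cfap57, Cfap97d1 and Dnah6 of these are given above. Cfap43, a tether gene, was at 307 and 279 CPM in late spermatocyte-like cells and the intermediate cluster of the young library and at 277 and 299 CPM in the aged library, so the order turned around. Cfap126 was at 478 and 494 CPM in round and later round cells of the young library and at 459 and 428 CPM in the aged library. Cfap61, of the calmodulin and spoke complex, was at 104 and 100.2 CPM in the intermediate cluster and round cells of the young and at 103 and 109.8 CPM in those of the aged library. Cfap73, a partner of Cfap100 in the modifier of inner arms, stayed at or under 2.98 CPM in every stage, Cfap97d2 at or under 5.01 CPM and Cfap99 at or under 6.11 CPM, and their highest stages rest on few counts.

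Steps from one stage to the next were counted by the same 1.5-fold size. From earlier to late spermatocytes 6 of 44 members were higher by 1.5-fold or more in the young and 7 of 46 in the aged library (19.1% and 19.8% of all genes), and 2 were lower in each (33.8% and 34% of all genes). From late spermatocytes to the intermediate cluster 13 and 14 of 46 were higher (33.3% and 33% of all genes) and 11 and 7 were lower (27.7% and 27%). Higher in both libraries at that step were Cfap100, Cfap126, Cfap157, Cfap221, Cfap45, Cfap47, Cfap58, Cfap61, Cfap77, Cfap97d1, Dnah3, Dnah5 and Dnah9. Lower in both were Cfap97d2, Dnah14, Dnah2, Dnah7a, Dnah7b, Dnah7c and Dnah8. Of these 7, 6 are heavy chains, among them the near copies Dnah7a, Dnah7b and Dnah7c, while the heavy chains Dnah3, Dnah5 and Dnah9 were higher in both. The shares of all genes are by library, and none is given for both libraries together.

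From the intermediate cluster to round cells 4 of 45 members were higher in the young and 6 of 45 in the aged library (19.8% and 21.9% of all genes), and 8 and 14 were lower (20.1% and 25.7%). Cfap100, Cfap97d1, Dnah3 and Dnah9 were higher in both. From round to later round cells 2 of 44 and 3 of 45 were higher (20.5% and 19.8% of all genes) and 19 were lower in each library (25.1% and 24.6%). Only Cfap97d1 (ratios 3.72 and 4.29) and Dnah9 (3.01 and 2.01) were higher in both libraries there. From later round to elongating cells 35 of 45 members were lower in the young and 34 of 45 in the aged library, beside 58.7% and 60.8% of all genes, and 1 and 0 were higher (18.7% and 18.4%). The median log2 difference at that last step was -1.60 and -1.56 for members and -0.97 and -1.09 for all genes.

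Other genes, taken from a list of 62 chosen by function, were counted alike. Besides axoneme and assembly genes, the list holds 6 transcription factors and 2 cytoplasmic dynein heavy chains. Of 61 with enough counts, 26 were highest in a spermatocyte stage and 31 in a later stage of both libraries, against 44.2% and 47.2% of all genes. The transcription factors had 1 and 5 of 6 in these counts, and the cytoplasmic heavy chains 1 and 0 of 2. Assembly factors, which build dynein arms in the cytoplasm, had 8 and 4 of 13. Dynein intermediate and light chains had 4 and 9 of 14, the nexin link 4 and 4 of 9, radial spokes 4 and 3 of 7, docking genes 2 and 3 of 5 and the central pair 2 and 3 of 5. Spag6, a central pair gene, was at 1.702, 2.99, 415, 575, 503 and 17.8 CPM in the young library, close in shape to Cfap77, while its relative Spag6l was highest in late spermatocyte-like cells at 679.9 CPM. Of the 6 transcription factors on the list, Mybl1, a regulator of meiotic genes, was highest in late spermatocyte-like cells at 133 and 137 CPM. Rfx2, which drives cilium genes in spermatids, was highest in the intermediate cluster at 603 and 655 CPM.

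Foxj1, the regulator of motile cilium genes, was at 14.4 and 13.6 CPM in late spermatocyte-like cells, 285 and 252 CPM in the intermediate cluster and 321 and 311 CPM in round cells. Markers of multiciliated epithelium were followed as a list of 10, since ciliated cells of the ducts would carry the same axoneme genes. Their sum was 694 and 606 CPM in the intermediate cluster and 859.5 and 833 CPM in round cells, mostly Foxj1 and Deup1, the latter at 452 and 451 CPM in round cells. Mcidas, a defining gene of multiciliated cells, was at 0 CPM in every young stage and at or under 0.0428 CPM in every aged stage, and Gmnc was at or under 2.70 CPM. Of the 10 markers, 6 were higher in the intermediate cluster and in round cells than in late spermatocyte-like cells of both libraries. Besides Foxj1, Deup1 and Gmnc these were Tppp3, at 1.47, 20.9 and 29.2 CPM in the young library in that order of stages, Ccno at 1.42, 8.99 and 5.39 CPM and Sec14l3 at 0.262, 3.73 and 5.64 CPM. Ccdc153 was at or under 0.980 CPM in every young stage, and the epithelial genes Epcam and Krt8 were lower in the intermediate cluster (33.3 and 8.64 CPM) than in late spermatocyte-like cells (48.6 and 12.7 CPM). The part of ciliated cells in the members' levels was not tested.

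Between the ages, most members were at nearly the same level within a stage. The median log2 ratio of aged over young was -0.016 in earlier spermatocytes, 0.028 in late spermatocyte-like cells, 0.056 in the intermediate cluster, 0.089 in round, -0.011 in later round and -0.081 in elongating cells. Over all genes the medians were -0.031, -0.026, 0.014, -0.003, 0.008 and -0.060. Among members with 10 or more counts, 0 of 44, 2 of 46, 2 of 45, 0 of 45, 2 of 45 and 2 of 41 were higher by 1.5-fold or more, beside 10.5%, 6.58%, 8.58%, 7.82%, 8.16% and 10.9% of all genes. Lower by that size were 2, 0, 0, 0, 0 and 5, beside 14.8%, 12%, 8.72%, 8.73%, 8.39% and 16.5% of all genes. Both counts are by size alone and were made without a test.

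The Dnah genes had their largest median ratio between the ages in the intermediate cluster. Summed, the heavy chains were at 1341 CPM (1316 to 1365) in young and 1678 CPM (1646 to 1711) in aged cells there. Their sum was higher in the aged library in every other stage too, with intervals apart in late spermatocyte-like, round and elongating cells. Of 14 Dnah genes with 50 or more counts in the intermediate cluster, 12 had a ratio above 1, with a median log2 ratio of 0.30. The Cfap genes had a median of 0.024 and 18 of 30 above 1, and the median over all genes with that minimum was 0.016. In the other stages, in order, 7 of 11, 9 of 12, 12 of 13, 6 of 13 and 8 of 9 Dnah genes had a ratio above 1. The median log2 ratios over all genes with that minimum were -0.008, -0.007, -0.002, 0.004 and -0.070 in those stages. The share of all genes with a ratio above 1 was not computed in any stage. In the intermediate cluster Dnah2 was at 48.1 and 74.3 CPM, a ratio of 1.54 (1.35 to 1.77), and Dnah10 at 73.1 and 98.7 CPM, a ratio of 1.35 (1.21 to 1.51). Cfap46 was at 80.1 and 126 CPM, a ratio of 1.58 (1.42 to 1.75). Dnah2 and Cfap46 are higher in the stage before, and Dnah10 is highest in this cluster. The 12 late spermatocyte markers summed to 1749 and 1838 CPM in this cluster and the 12 round spermatid markers to 2902 and 2618 CPM, the former higher and the latter lower in the aged library. The part of this marker difference in the gene ratios was not tested. Over the alternatives the ratio ran from 1.09 to 1.61 for Dnah2, from 1.07 to 1.76 for Dnah10 and from 1.17 to 1.84 for Cfap46.

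At the other end in that cluster, Cfap97d1 was at 15.6 and 11.3 CPM (ratio 0.722, 0.531 to 0.974), Cfap126 at 407 and 346 CPM (0.850, 0.805 to 0.898) and Cfap58 at 227 and 196 CPM (0.863, 0.802 to 0.929). These genes were higher in round and later round cells. In round cells the highest ratios were those of Dnah9 (1.41, 0.921 to 2.18), Cfap46 (1.35, 1.11 to 1.63) and Dnah7a (1.31, 1.06 to 1.62), and the lowest those of Cfap97d1 (0.810), Cfap54 (0.924) and Cfap298 (0.928), whose intervals hold 1. In later round cells Dnah2 was at 11.5 and 20.02 CPM (1.74, 1.24 to 2.46), and Cfap20 and Dnah1 followed at 1.19 and 1.16. Cfap52 (0.844), Cfap126 (0.866) and Cfap43 (0.889) had the lowest ratios there. Over the alternatives the later round ratio of Dnah2 ran from 1.05 to 4.36 and the round ratio of Dnah9 from 1.13 to 3.78. Other ratios crossed 1 there. The round ratio ran from 0.687 to 1.31 for Dnah7a and from 0.952 to 1.40 for Cfap46. For Cfap97d1 the ratio in the intermediate cluster ran from 0.716 to 1.48, and for Cfap20 the later round ratio ran from 0.902 to 1.32.

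In late spermatocyte-like cells the highest ratio was that of Cfap97d2, at 1.21 and 2.22 CPM (1.84, 1.11 to 3.15), followed by Cfap73 (1.36) and Cfap77 (1.32), both with intervals that hold 1. Dnah3 (0.724), Cfap100 (0.735) and Cfap47 (0.843) were lowest, all under 5 CPM and with intervals that hold 1. In earlier spermatocytes Cfap58 was at 25.5 and 18.8 CPM (0.734, 0.555 to 0.986), Cfap161 at 203 and 163 CPM (0.805, 0.730 to 0.889) and Cfap97 at 416 and 352 CPM (0.847, 0.791 to 0.907). The highest ratios there, of Cfap97d2, Cfap221 and Cfap99 at 1.25, 1.21 and 1.21, had intervals that hold 1. Taken by number, 2 alternatives chosen after the data were seen, cluster 4 (31 young and 591 aged cells) had a median log2 ratio of -0.044 over members and -0.052 over all genes. Cluster 8 (46 and 470 cells) had -0.002 and -0.033. In clusters 4 and 8 alone the ratio of Cfap58 was 0.799 (0.466 to 1.47) and 0.759 (0.546 to 1.08). That of Cfap161 was 0.787 (0.650 to 0.961) and 0.885 (0.789 to 0.994). That of Cfap97 was 0.888 (0.781 to 1.01) and 0.878 (0.810 to 0.953). Cluster 4 gave 31 of the 77 young and 591 of the 1061 aged earlier spermatocytes. The part of this mix in the pooled ratios was not tested.

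In elongating cells the ratios were wider and rest on the fewest counts. Dnah7c was at 17.8 and 29.4 CPM (1.66, 1.04 to 2.64), Dnah2 at 12.7 and 20.8 CPM (1.63, 0.937 to 2.85) and Cfap57 at 37.3 and 53.8 CPM (1.44, 1.04 to 2.00). Cfap206 was at 172 and 111 CPM (0.646, 0.533 to 0.781), Cfap45 at 23.2 and 15.1 CPM (0.649, 0.371 to 1.10) and Cfap53 at 25.5 and 15.8 CPM (0.619, 0.360 to 1.03). The direction of Cfap206, Cfap45, Cfap53 and Dnah2 in these cells turned around under other ways of drawing the stages or of depth, so it is not a stable value.

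**Figure D4:**
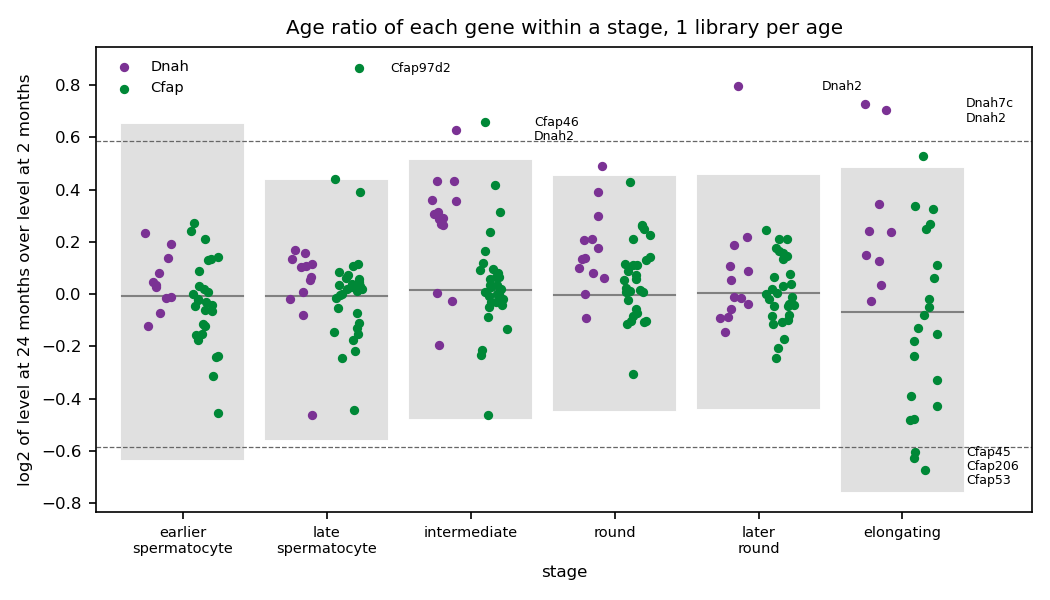
Log2 ratio of aged over young level (vertical axis) of each gene with 50 or more counts in each of 6 stages (horizontal axis), with Dnah genes in purple and Cfap genes in green; the grey box spans the central 90% of all genes with the same minimum, the grey line is their median and the dashed lines are 1.5-fold. Most points lie within the box, and in the intermediate cluster 12 of 14 Dnah genes lie above 0. In round cells 12 of 13 and in elongating cells 8 of 9 Dnah genes had a ratio above 1, and in later round cells 6 of 13. The share of all genes with a ratio above 1 was not computed.

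Outside the germ line, levels were taken in Leydig-like and macrophage-like cells only. In Leydig-like cells, the androgen-producing cells between the tubules (1060 young and 567 aged cells), the members were low, with 3 Dnah names as exceptions. The median member was there at 4.13% of its highest germ cell stage for the young and 3.56% for the aged library. Summed, the members were at 674 and 607 CPM in Leydig-like cells and at 491 and 1093 CPM in macrophage-like cells. Dnah9 reached 17.1 CPM (14.3 to 20.3) and 20.4 CPM (15.4 to 26.5), which is 61.0% and 77.4% of its highest germ cell stage. Dnah2 was at 73.4 CPM (67.4 to 79.7) and 57.7 CPM (49.0 to 67.4). Without Dnah2 and Dnah9, the highest was Cfap20, at 15.8% and 18.9%.

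Dnah2os (chr11:69448548-69453676, plus strand) had 211 counts in young and 58 in aged Leydig-like cells, 27.3 CPM (23.8 to 31.3) and 21.2 CPM (16.1 to 27.4), against 3 and 2 counts over all 6 germ cell stages. Of the young Leydig-like cells 16.6% had a Dnah2os count and of the aged ones 9.52%; thinned to 2000 counts it was 4.72% and 5.81%. The macrophage-like cells, with a median depth of 5504 and 2945.5 counts, had shares of 4.62% and 2.34%. Dnah2os lies within Dnah2 on the other strand, and no source used here says whether counting used the strand. The Dnah2 and Dnah2os counts of Leydig-like cells therefore cannot be told apart. Over all germ cell stages Dnah2 had 4206 young and 8449 aged counts, beside the 3 and 2 of Dnah2os. What these germ cell counts mean for the Leydig-like counts was not tested. Dnah9 had a count in 10.8% and 9.17% of Leydig-like cells and in 2.31% and 2.34% of macrophage-like cells. Dnah8 was at 38.5 and 36.9 CPM in Leydig-like cells, 6.55% and 4.97% of its level over all germ cells, while Dnah9 in Leydig-like cells was 3.08 (2.47 to 3.83) and 5.21 times (3.82 to 7.02) its level over all germ cells.

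**Figure D5:**
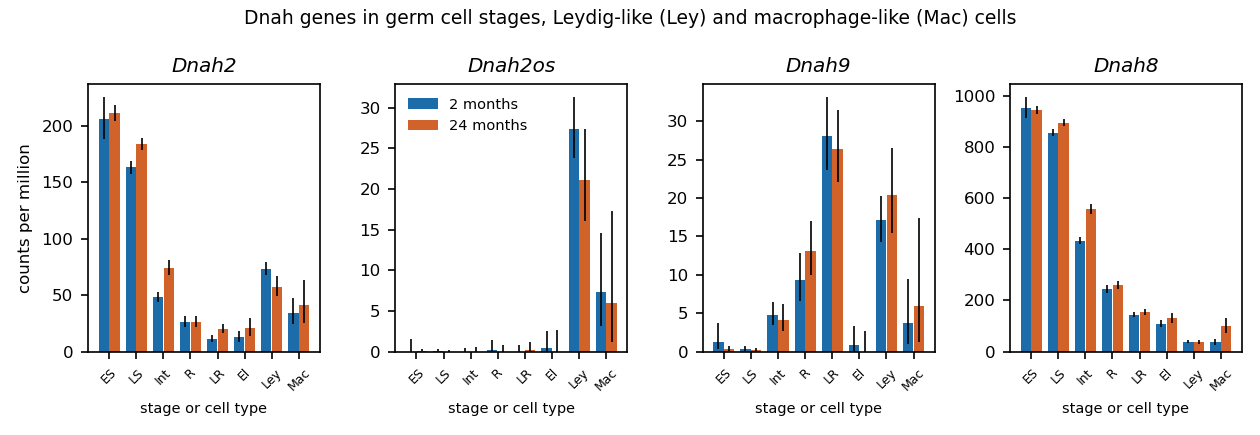
Level in CPM (vertical axis, from 0, its own scale in each panel) of Dnah2, Dnah2os, Dnah9 and Dnah8 in 6 germ cell stages and in Leydig-like (Ley) and macrophage-like (Mac) cells (horizontal axis), with 1 young (blue) and 1 aged (orange) library and exact 95% Poisson intervals as bars. Dnah2os is near 0 in every germ cell stage and at 27.3 and 21.2 CPM in Leydig-like cells, and Dnah8 shows the opposite pattern.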

How the data were processed

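For each library the authors deposited a table of whole-number counts (cells by genes), not normalized. Cell Ranger 2.11 and mm10 (GRCm38) are named in the submitters' processing notes, while the aged table's header names the BD Rhapsody pipeline 1.7.1 and STAR 2.5.2b. Whether counts are of molecules or of reads, and the use of strand, are not given in the sources used here. The young library had 2771 cells and 53413783 counts and the aged library 6823 cells and 66390904 counts, with a lowest cell total of 3215 and 186 and a median of 16582 and 7488.

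Cells with 500 counts, 200 genes and at most 25% mitochondrial counts were kept, and doublets called by Scrublet (scanpy 1.11.5; 38 young, 121 aged) were removed. Cells of both libraries were clustered together (2000 variable genes without the members and other axoneme genes, 40 components, 15 neighbours, leidenalg 0.10.2, resolution 1) and named from marker lists. The limits for the intermediate and later round stages were chosen with the clusters in view. The marker lists share Mybl1 and Foxj1 with the axoneme list.

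Counts were summed per stage and library and given as CPM, with exact Poisson 95% intervals, conditional binomial intervals for ratios and Clopper-Pearson intervals for shares. PCR copies, if counted, make these too narrow. Sums with 20 counts in each library gave peak stages, and 10 counts gave ratios between ages. Named are all Dnah genes, the 4 Cfap genes most tied to each stage, the 3 highest and 3 lowest age ratios per stage (50 counts), and members whose peak stage differed. Some others are named beyond this rule, after their values were seen. Members and lists were chosen with earlier results of these data known. The intervals were run on simulated counts drawn from the same Poisson model that they assume. Those counts hold no variation between cells or libraries and no PCR copies, so the run cannot check the intervals against these. Coordinates are from GENCODE M21, where 47 of 48 names matched, 31 of them overlapping another gene.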

Additional observations from a re-analysis of the deposited data

Results flagged for a closer look

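For 3 genes the age ratio lay past 1.5-fold in opposite directions in 2 stages, and the difference between the stages was not tested. Cfap73 was higher in the aged library in later round cells (ratio 5.11, interval 1.09 to 48.0, from 2 young and 10 aged counts) and lower in earlier spermatocytes (0.411, 0.167 to 1.15, from 7 and 20 counts). Cfap97d2 was higher in late spermatocyte-like cells (1.84, 1.11 to 3.15, from 23 and 52 counts) and lower in elongating cells (0.573, 0.133 to 1.93, from 11 and 4 counts). Dnah5 was higher in late spermatocyte-like cells (1.96, 0.641 to 7.09, from 5 and 12 counts) and lower in earlier spermatocytes (0.648, 0.134 to 6.16, from 2 and 9 counts). All rest on few counts, and 4 of the 6 intervals hold 1.

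Cluster 6, left out of the stages, held 552 aged and 0 young cells with a median of 929.5 counts and 20.9% mitochondrial counts. Its members summed to 12570.8 CPM (12276 to 12871), above the sum in every stage, and 19 of 46 members were higher there than in any stage of the aged library, 15 of the 19 with intervals apart. Of all 17562 genes with enough counts, 21.9% were higher there than in any aged stage. Their share with intervals apart was not computed. Dnah8 was at 3404 CPM (3251 to 3562), Dnah14 at 947, Dnah17 at 670 and Cfap65 at 1071 CPM. Heavy chains made up 11 of the 19. That median lies under the lowest total of a young cell, 3215, and the libraries cannot be compared there.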

How the results depend on the processing

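There were 827 values recomputed under 13 alternatives and 2 more chosen after the data were seen (clusters 4 and 8 each alone). Of these, 605 stayed within the interval of the reported value, or within 1.5 times for counts of members, 213 moved further and 9 turned around. For sums and ratios that interval covers counting error. For the median age ratios it came from the spread among the members and does not cover counting error. A ratio was counted as turned around only where its reported value was at or past 1.5-fold. Smaller ratios also crossed 1 in some alternatives and are not among the 9, such as those of Dnah7a and Cfap46 in round cells. Members highest in a spermatocyte stage in both libraries numbered 16 to 26, in a later stage 16 to 23, and with the same highest stage 27 to 40, each within 1.5 times the reported count, though these counts do not say which genes. The stages could not be drawn alike in every alternative. The stricter filter and keeping doublets gave no intermediate stage, the lowest young total no elongating stage, resolution 0.6 no earlier spermatocyte stage and per-cell scores no round stage, so these have no values there. The median log2 age ratio in elongating cells was 0.46 with doublets kept, 0.24 at resolution 1.5 and 0.27 with per-cell scores, and in earlier spermatocytes 0.032 with the lowest young total. Members higher by 1.5-fold, 8 over the stages, were 21 with doublets kept, 22 with cells thinned, 16 with mean per-cell CPM, 14 with 1 count or more and 17 with per-cell scores. Members lower, 7 over the stages, were 15 thinned, 4 at resolution 1.5, 1 with the lowest young total, 13 with mean per-cell CPM, 15 with 1 count or more, 3 with 50 counts or more and 3 with per-cell scores. In elongating cells the ratio turned to 1.10 (doublets kept) and 1.18 (resolution 1.5) for Cfap206, to 1.34, 1.15 and 1.35 (per-cell scores) for Cfap45, to 1.25, 1.34 and 1.06 for Cfap53, and to 0.775 for Dnah2 when thinned. Apart from changes in the number of genes or cells, the cause was not tested. No paired analysis was possible because each age has 1 library, and the number 1 comes from accession order.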

Other observations

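Cells outside the stages gave further values for the members. Cluster 14 held 109 aged and 0 young cells, with a median of 1420 counts, and round spermatid markers scored highest in it. Its members summed to 9612 CPM (9144 to 10099), and 20 of 46 members were higher there than in any aged stage, beside 26.9% of all genes. Of the 20, 11 had intervals apart, a share not computed for all genes. Malat1, a nuclear RNA, was at 2397 CPM there against at most 123 CPM in any aged stage, and its part in the result was not tested. Cfap100 was at 854 CPM (718 to 1008) against 183 CPM in its highest aged stage, Dnah3 at 750.2 CPM (623 to 895) against 201, Cfap69 at 805 CPM (674 to 955) against 509, and Dnah9 at 73.2 CPM (37.8 to 128) against 26.4. Members highest in spermatocytes were also among the 20, such as Cfap65 at 744 CPM (618 to 888) against 432. Dnah7b was at 262 CPM (190 to 353) against 126 and Dnah7a at 226 CPM (159 to 311) against 95.6. Cfap77 and Cfap58, highest in round cells, were not among the 20. Cluster 7 held 73 young and 471 aged cells, with 4295 and 4518 CPM summed over members, and Cfap97d1 was the member whose interval lay above that of every stage in both libraries. Cluster 16, 72 aged cells with markers of spermatogonia and early spermatocytes, had 1135 CPM summed. There 0 of 46 members were higher than in every aged stage, beside 33.4% of all genes.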
